A study of Mus musculus with 31 samples.

Results

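The genes described here make up the urea cycle and the handling of ammonia around it. They were taken as 10 listed symbols (Cps1, Otc, Ass1, Asl, Arg1, Slc25a13, Slc25a15, Nags, Gls2 and Glul), and every probe annotated to any of them on an Illumina mouse beadchip was followed in liver and kidney. Of the 10 genes 9 had a probe, with 14 probes in all, out of 16593 genes and 25697 probes on the array. Cps1, Otc, Asl, Slc25a13 and Slc25a15 had 2 probes each. Gls2 was not analysed here. The samples came from male C57BL/6J mice, 20 to 30 weeks old, and every group received lipopolysaccharide (LPS), the bacterial endotoxin that sets off systemic inflammation. LPS was combined with vehicle, with IVIg (pooled immunoglobulin G for intravenous use) or with modIVIg, a form of IVIg altered in a way that is not stated in the labels. The liver set held 4 arrays for each of the 3 treatments, and kidney had 3 vehicle, 4 IVIg and 4 modIVIg arrays. No group went without LPS, so each comparison is between treatments given on top of LPS, and the labels used here give no dose or time of LPS. The labels do not state that arrays of a group come from separate mice, so the p-values measure the spread between these samples, which may be technical in part.

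The urea cycle turns ammonia, which is toxic to the brain, into urea in the liver. Carbamoyl phosphate synthetase (Cps1) and ornithine transcarbamylase (Otc) work inside the mitochondria, and argininosuccinate synthetase (Ass1), argininosuccinate lyase (Asl) and arginase (Arg1) in the cytosol. N-acetylglutamate synthase (Nags) makes the obligate activator of Cps1. The aspartate-glutamate carrier citrin (Slc25a13) and the ornithine carrier (Slc25a15) link the 2 compartments. In the liver lobule the cycle is densest in the periportal hepatocytes, whereas glutamine synthetase (Glul) sits in a thin pericentral layer and binds the ammonia that has escaped the cycle. The kidney expresses Ass1 and Asl strongly in its proximal tubules and makes arginine for the body from citrulline. The comparisons ask whether IVIg or its modified form shifts the transcript levels of these genes under LPS.

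Levels are given as log2 of the bead signal after background correction and quantile normalisation within an organ, and a probe was called detected where the scanner's detection p was under 0.01. Between 31.6% and 35.3% of probes were detected on the liver arrays and between 34.8% and 41.2% on the kidney arrays. The tissue labels fitted their markers: 9 of 11 measured hepatocyte markers were detected on every liver array and 8 of 10 proximal tubule markers on every kidney array, although the probes for the hepatocyte genes Alb and Fgb were dim in vehicle livers, with mean levels of 7.11 and 6.25. The kidney arrays fell into 2 sets by replicate number. Of 8544 features tested in kidney, 237 were higher by over 3 on the log2 scale on the 6 arrays of replicates 1 and 2 than on the 5 arrays of replicates 3 and 4, and 0 were higher by that much the other way. Glul and Slc25a13 were among the 237, so their kidney values are given with and without replicates 3 and 4.

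In liver, 8 of the 9 genes passed the filter on dim probes, with 11 of their 14 probes. Nags was not detected on any of the 23 liver and kidney arrays, and the second probes of Otc (ILMN_2656248) and, in liver, of Slc25a13 (ILMN_1236546) were not detected either. Slc25a13 and Glul fell in livers of mice given modIVIg compared with vehicle, and no gene of the group rose. These were 2 of 8 tested members, where 352 of 7155 features (4.92%) were called over the whole array and 2.95% were called lower. Over the 8 members the median log2 change was −0.40, with 6 lower, against a median of 0.04 over all features. In whole tissue, fewer cells of a type and less RNA per cell cannot be told apart.

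Slc25a13, which supplies aspartate to the cycle, was lower by a factor of 2.50 in the modIVIg livers. Its levels were 7.39, 8.53, 7.96 and 7.65 in the vehicle livers and 6.31, 6.78, 6.81 and 6.32 in the modIVIg livers. The IVIg livers had 7.44, 8.40, 7.53 and 7.35. All 4 modIVIg livers lay below all 8 others. The log2 change from vehicle was −1.32 ± 0.27 (SE, n = 4 per group), with an adjusted p of 0.0219 (limma with Benjamini-Hochberg adjustment over all features). The adjusted p rose above 0.05 when vehicle replicate 2 (0.0621), vehicle replicate 3 (0.0553), modIVIg replicate 1 (0.0653) or modIVIg replicate 4 (0.0589) was left out, and the change then lay between −1.30 and −1.11. The modIVIg signals were close to the detection limit, with a detection p of 0.00627 in replicate 1 and 0.00376 in replicate 4. Over 12 other processing settings the change ran from −1.34 to −0.74, so the factor of 2.50 depends on the processing.

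Glul, which makes glutamine from glutamate and ammonia, was lower by a factor of 1.55. It measured 10.49, 9.88, 10.30 and 10.35 in the vehicle livers and 9.45, 9.85, 9.66 and 9.51 in the modIVIg livers. In the IVIg livers it measured 10.07, 10.08, 10.36 and 10.08. The groups treated with vehicle and modIVIg did not overlap, but the lowest vehicle liver was only just above the highest modIVIg liver. The log2 change was −0.63 ± 0.15 with an adjusted p of 0.0367 (limma). This call was lost in 7 of the 12 fits that each left out 1 liver array, namely without vehicle replicates 1 (0.0695), 3 (0.0798) or 4 (0.0798), IVIg replicate 1 (0.0502), or modIVIg replicates 1 (0.0955), 3 (0.0769) or 4 (0.0856), while the change stayed between −0.75 and −0.55.

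The stretches of 250 bases before the RefSeq starts of these 2 genes are shown because they are the members called in liver. Slc25a13 is on the minus strand at chr6:6217174-6217423 and Glul on the plus strand at chr1:153899679-153899928 (GRCm38.p6). They were searched on both strands for the C/EBP motif TTNNGCAA, the cAMP response element TGACGTCA, the STAT motif TTCNNNGAA, the CCAAT box with its letters CCAAT, the GC box GGGCGG and the TATA box TATAAA, and capitals mark the matches.
Slc25a13: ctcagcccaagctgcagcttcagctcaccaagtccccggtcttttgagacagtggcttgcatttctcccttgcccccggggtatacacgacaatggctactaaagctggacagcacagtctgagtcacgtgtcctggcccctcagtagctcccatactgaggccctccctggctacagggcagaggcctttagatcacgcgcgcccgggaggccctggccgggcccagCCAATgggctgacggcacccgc
Glul: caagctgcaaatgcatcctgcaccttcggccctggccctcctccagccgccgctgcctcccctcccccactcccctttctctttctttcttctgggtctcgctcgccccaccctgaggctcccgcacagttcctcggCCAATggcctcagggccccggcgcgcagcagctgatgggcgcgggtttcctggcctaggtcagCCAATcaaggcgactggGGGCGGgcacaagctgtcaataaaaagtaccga
Slc25a13 held 1 CCAAT match, and Glul held 2 CCAAT matches and 1 GC box match. Of 32851 promoters of the same length 33.8% held CCAAT and 32.7% held the GC box. The other 4 motifs had no match in either window. Of all promoters 9.56% held the C/EBP motif, 1.55% the cAMP response element, 7.02% the STAT motif and 12.4% the TATA box. None of the 6 motifs overlapped another in these windows. RefSeq promoters were at hand for 6 of the 10 genes.

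**Figure D1:**
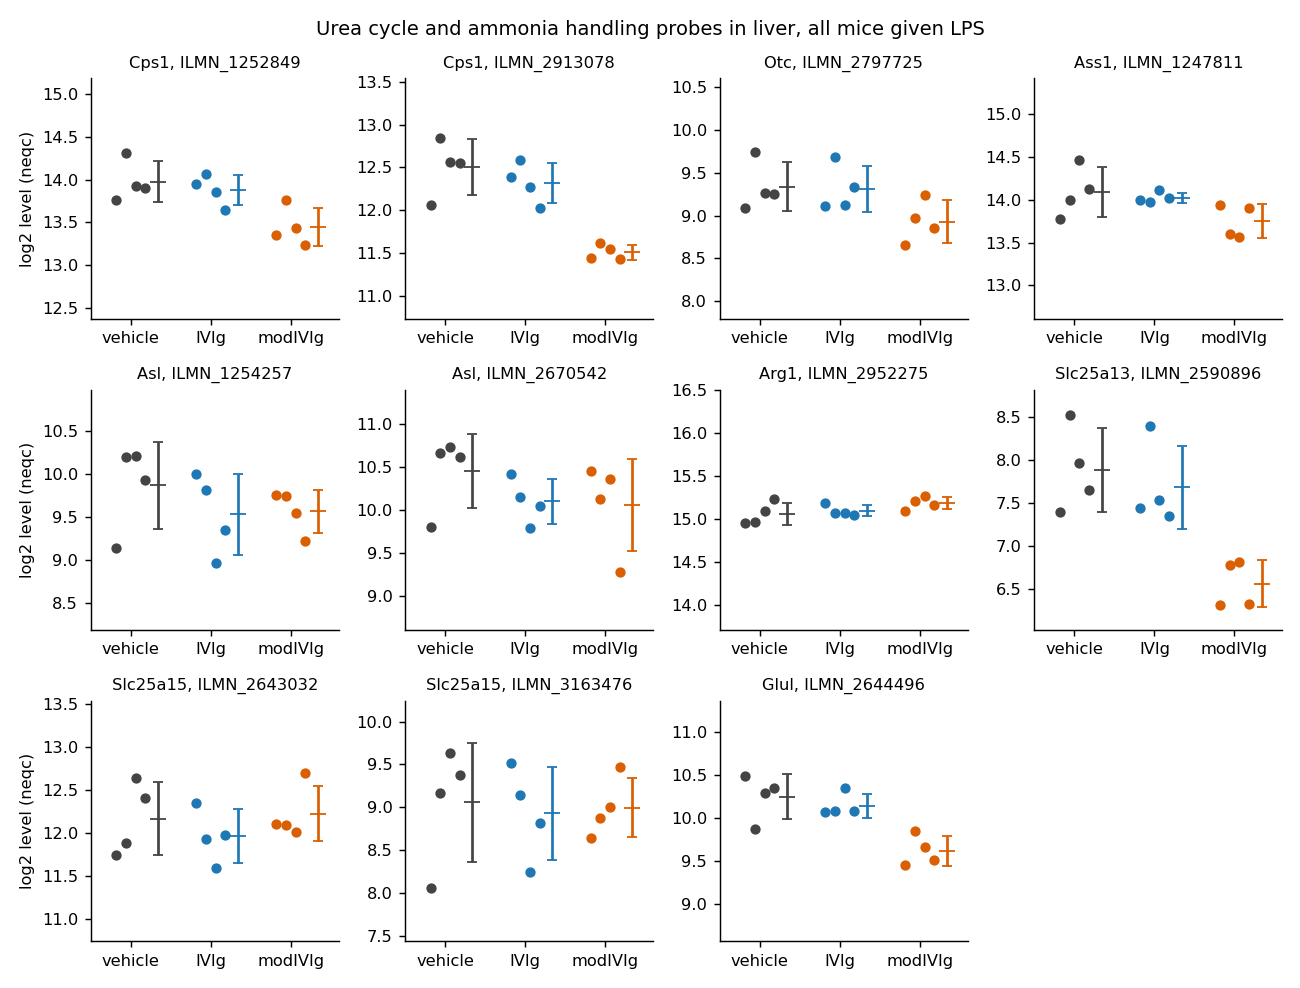
Log2 level (y axis) of the 11 member probes detected in liver, by treatment (x axis). Points are arrays, bars are mean ± SD (n = 4), and every panel spans the same height. The modIVIg arrays lie below all vehicle arrays for both Cps1 probes, Slc25a13 and Glul.

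Cps1, the rate-limiting entry step of the cycle, gave different calls with its 2 probes. On ILMN_2913078 the vehicle livers measured 12.06, 12.84, 12.56 and 12.56 and the modIVIg livers 11.45, 11.62, 11.54 and 11.43. The IVIg livers measured 12.39, 12.58, 12.27 and 12.02, so that the modIVIg livers lay below all 8 others. That probe changed by −0.99 ± 0.17 with an adjusted p of 0.0121 in a limma fit over all 9114 probes, where 4.47% of probes were called, and it passed in each of the 12 fits that left out 1 array (−1.14 to −0.88). On the brighter probe ILMN_1252849, which stood for the gene, the values were 13.76, 14.31, 13.93 and 13.90 with vehicle and 13.35, 13.76, 13.44 and 13.24 with modIVIg. The lowest vehicle liver and the highest modIVIg liver were nearly level on it. Its change of −0.53 ± 0.16 did not pass (adjusted p = 0.0687 over genes and 0.0730 over all probes, limma), and it passed when the 2 probes were averaged (−0.76, adjusted p = 0.0228). In the fit over all probes 3 of 11 member probes were called, all lower, against 2.81% of all probes called lower. For 4 of the 11, both Cps1 probes, Slc25a13 and Glul, every modIVIg liver lay below every vehicle liver, as for 8.46% of all probes, and 19.1% of all probes had groups that did not overlap in either direction.

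The other enzymes of the cycle did not pass. Otc, which joins carbamoyl phosphate to ornithine, measured 9.09, 9.75, 9.26 and 9.25 with vehicle and 8.65, 8.97, 9.25 and 8.85 with modIVIg. Its groups overlapped, and its change was −0.41 ± 0.18 (adjusted p = 0.197, limma). Ass1, which condenses citrulline with aspartate, ran from 13.77 to 14.46 with vehicle and from 13.56 to 13.94 with modIVIg, a change of −0.34 ± 0.15 (adjusted p = 0.201). Asl, which splits argininosuccinate, was at −0.40 ± 0.27 (adjusted p = 0.388) on the probe that stood for the gene and at −0.30 ± 0.27 on the other. Leaving out vehicle replicate 1 moved the first of these values to −0.61 and leaving out modIVIg replicate 4 moved it to −0.14, and it passed in neither fit. With 1 array left out Otc ran from −0.51 to −0.27 and Ass1 from −0.44 to −0.21, and neither passed in any of the 12 fits. Arg1, which releases urea, was level across groups, from 14.96 to 15.23 with vehicle and from 15.10 to 15.26 with modIVIg. Its change was 0.12 ± 0.11, with a 95% interval from −0.11 to 0.36. The Arg1 probe stood among the 77 brightest on every liver array, at 49.6% to 68.3% of the array's highest signal. Slc25a15, the ornithine carrier, was at 0.06 ± 0.23 on its brighter probe and at −0.06 ± 0.34 on the other, and the brighter probe ran from −0.10 without modIVIg replicate 4 to 0.22 without vehicle replicate 3.

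Between modIVIg and IVIg the same members lay lowest, and none passed in the fit over genes, where 78 of 7155 features (1.09%) were called. Slc25a13 was at −1.12 ± 0.27 (adjusted p = 0.0681), Glul at −0.53 ± 0.15 (0.107), Cps1 at −0.43 ± 0.16 (0.199) and Otc at −0.38 ± 0.18 (0.325) by limma. The Cps1 probe ILMN_2913078 fell by 0.81 ± 0.17 in the fit over all probes (adjusted p = 0.0493, 0.845% of probes called), but passed in only 4 of 12 fits with 1 array left out. Ass1 ran from 13.97 to 14.11 in the IVIg livers, above all 4 modIVIg livers, and was 1 of 4 member probes whose groups did not overlap, where 9.58% of all probes did not. It was at −0.27 ± 0.15 (adjusted p = 0.407). This comparison and the one with vehicle share the modIVIg livers, so they are not independent of each other.

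IVIg itself was not distinguishable from vehicle for any member in liver. Of 7155 features 0 were called by limma (0%) and 128 had an unadjusted p under 0.05, none of them a member. The largest differences among the members were Asl at −0.35 ± 0.27, Slc25a15 at −0.20 ± 0.23 and Slc25a13 at −0.20 ± 0.27. The 95% interval for Slc25a13 ran from −0.79 to 0.39 and that for Cps1 from −0.44 to 0.24. Changes within those limits are not excluded by these 4 arrays per group.

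**Figure D2:**
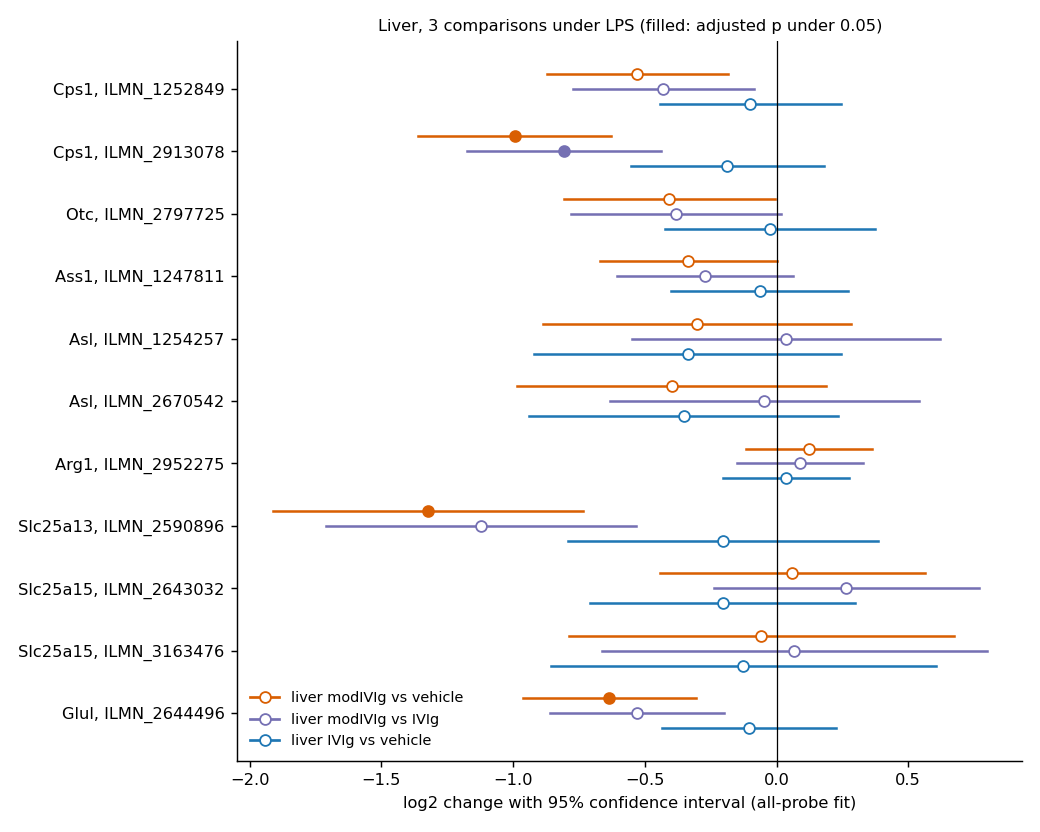
Log2 change (x axis) with its 95% confidence interval for each member probe kept in liver (y axis), in the fit over all probes, for 3 comparisons with n = 4 per group. Filled circles passed an adjusted p of 0.05. Filled circles appear for Cps1 ILMN_2913078 in both modIVIg comparisons and for Slc25a13 and Glul against vehicle.

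Genes around the cycle moved in both directions in the modIVIg livers. Of 27 listed neighbours in nitrogen and arginine metabolism 18 were tested, 4 fell and 1 rose against vehicle, with a median of −0.01. Of all 7155 features 211 were called lower and 141 higher. Ddah1, which breaks down methylated arginines that inhibit nitric oxide synthase, fell by 1.30 ± 0.14 (adjusted p = 0.00136, limma). Gamt, the second enzyme of creatine synthesis, fell by 1.20 ± 0.29, the alanine aminotransferase Gpt by 0.94 ± 0.23 and Sirt5, a mitochondrial deacylase that acts on Cps1, by 0.56 ± 0.14, with adjusted p from 0.0365 to 0.0413. Asns, which makes asparagine, rose by 1.06 ± 0.27 (adjusted p = 0.0418). The mitochondrial enzymes Glud1, which frees ammonia from glutamate, and Got2, which makes aspartate, were at −0.40 ± 0.28 and −0.22 ± 0.12 without passing. Against IVIg, Ddah1 fell by 1.08 ± 0.14 (adjusted p = 0.00679, limma) and was the 1 neighbour called, where 1.09% of all features were called.

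Carriers of ammonia, urea, glutamine and arginine showed no call, with 12 of 26 tested and a median of −0.14. The largest by limma's statistic, none of which passed, were the glutamine carrier Slc38a3 (−0.54 ± 0.18, adjusted p = 0.0970), the amino acid exchanger subunit Slc3a2 (0.77 ± 0.31), the basic amino acid exchanger Slc7a7 (−0.43 ± 0.26) and Slc38a7 (0.44 ± 0.27). Of 20 regulators of the cycle 12 were tested and 1 rose, with a median of 0.02, where 141 of all 7155 features were called higher. This was the liver transcription factor Foxa1, detected on 0 of 4 vehicle and 3 of 4 modIVIg arrays. Its adjusted p of 0.0379 (limma) sets the modIVIg signal against undetected vehicle values, and it was at least 1.09-fold higher with modIVIg. Here and below, such a bound divides the bright group's mean by the dimmest signal still detected on the arrays of the other group, or by the probe's own signal there if brighter. Hnf4a (−0.23 ± 0.12), Stat3 (−0.35 ± 0.20) and Foxa2 (0.53 ± 0.33) led those that did not pass. Cebpa and Cebpb, whose products bind urea cycle promoters, were at 0.04 ± 0.22 and −0.15 ± 0.24.

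Both ends of the lobule were low on balance. Of 13 periportal genes tested 9 were lower and 2 fell, the cell adhesion gene Cdh1 by 1.25 ± 0.17 (adjusted p = 0.00441) and the gluconeogenic enzyme Pck1 by 0.68 ± 0.16 (0.0374), with a median of −0.20. Agxt (−0.63 ± 0.22) and Hsd17b6 (−1.04 ± 0.40) did not pass. Of 13 pericentral genes tested 12 were lower and Cyp1a2 alone fell, by 0.72 ± 0.15 (adjusted p = 0.0219, limma), with a median of −0.19. Over all features 44.9% were lower, 2.95% were called lower and the median was 0.04. A single call among 13 genes is near that share. Gulo (−0.38 ± 0.17), Cyp2c50 (−0.28 ± 0.14) and Aldh1a1 (−0.37 ± 0.21) followed it without passing. Oat, the ornithine aminotransferase that shares the pericentral layer with Glul, was at 0.00 ± 0.21 (adjusted p = 0.993). These lists were chosen with results of the same arrays known, so their directions are no independent evidence.

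Markers of other cells moved in the same livers, where 2.95% of all features were called lower. Of 9 Kupffer cell markers tested 5 fell, with a list median of −0.87. Vsig4 fell by 1.84 ± 0.35, Spic by 1.23 ± 0.27 and Clec4f by 1.16 ± 0.25. C1qa and Timd4, not detected in any modIVIg liver, were lower at least 1.39-fold and 1.35-fold. Both were dim with vehicle too, detected on 3 of 4 arrays. The summed level of the Kupffer cell markers ranged from 10.98 to 11.84 on a log2 scale with vehicle, from 10.39 to 11.65 with IVIg and from 10.05 to 11.37 with modIVIg. Of 7 sinusoidal endothelial markers 2 fell, Clec4g by 1.36 ± 0.31 and Flt1 by 0.69 ± 0.16, and the summed level ranged from 11.53 to 12.08 with vehicle and from 10.83 to 11.46 with modIVIg. The red cell anion exchanger Slc4a1, not detected with modIVIg, was at least 2.34-fold lower, and 1 of 3 tested red cell markers fell. Hepatocyte markers gave 0 calls of 11 tested, with a median of −0.01 and a summed level from 18.68 to 18.71 with vehicle and from 18.65 to 18.69 with modIVIg. The part that any of these cell markers plays in the fall of Slc25a13 and Glul was not tested.

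**Figure D3:**
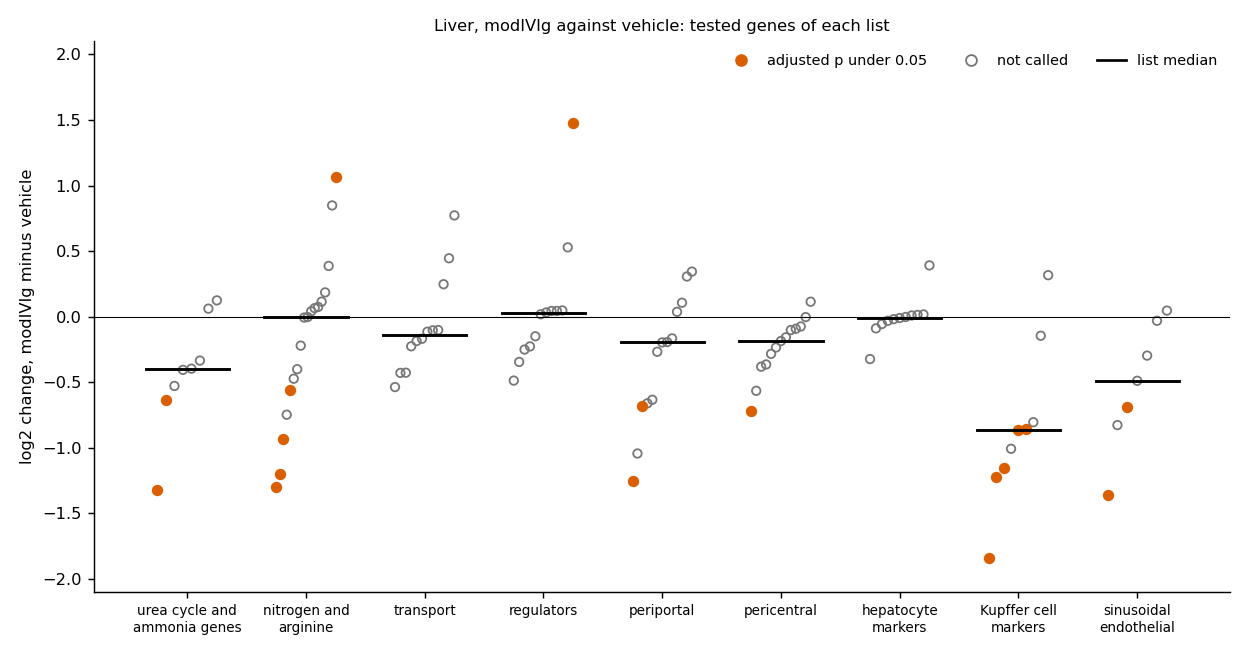
Log2 change between modIVIg and vehicle livers (y axis, n = 4 per group) of each tested gene, by list (x axis). Orange points passed an adjusted p of 0.05, open points did not, and bars are list medians. The urea cycle and ammonia genes have a median of −0.40, the nitrogen and arginine neighbours −0.01, the hepatocyte markers −0.01 and the Kupffer cell markers −0.87.

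Over the 12 liver arrays the gene whose profile was most like that of Cps1 was glycogen synthase Gys2, with a Pearson correlation of 0.968, followed by Upp2 (0.959), Endod1 (0.947), Thnsl2 (0.946) and Zdhhc4 (0.944). For Slc25a13 the nearest were Thnsl2 (0.969), the prekallikrein gene Klkb1 (0.966), Galm (0.965), Gm4952 (0.963) and Acsm5 (0.957). For Glul they were the thiamine carrier Slc19a2 (0.900), Notch1 (0.891), Nat8f1 (0.886), Paxx (0.882) and the ketone body enzyme Bdh1 (0.878). These coefficients are descriptions over arrays that share the treatment groups. After the group means were taken out they were 0.852 to 0.933 for the Cps1 set, 0.867 to 0.907 for the Slc25a13 set and 0.542 to 0.838 for the Glul set. Cps1 and Slc25a13 also tracked each other within groups (0.818 with the brighter Cps1 probe), whereas Glul and Cps1 did not move the same way there (−0.217).

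In kidney, 5 members passed the filter on dim probes, with 8 probes: Ass1, Asl, Slc25a13, Slc25a15 and Glul. None was called in any of the 3 comparisons, in which limma called 0 of 8544 features (0%) and 226, 325 and 116 features had an unadjusted p under 0.05 for modIVIg against vehicle, modIVIg against IVIg and IVIg against vehicle. Ass1, the arginine-making enzyme of the proximal tubule, measured 14.20, 14.24 and 14.25 with vehicle, 14.01, 14.09, 14.40 and 14.20 with IVIg and 13.61, 13.66, 14.31 and 14.04 with modIVIg. The modIVIg kidneys of replicates 1 and 2 were the lowest of all 11. Ass1 was at −0.33 ± 0.19 against vehicle (adjusted p = 0.997), at −0.59 ± 0.11 in replicates 1 and 2 (adjusted p = 0.258) and at −0.09 ± 0.24 in replicates 3 and 4. Asl was at −0.27 ± 0.30 over all arrays, at −0.67 ± 0.20 in replicates 1 and 2 (adjusted p = 0.375) and at 0.17 ± 0.34 in replicates 3 and 4. Slc25a15 was at 0.06 ± 0.31, −0.33 ± 0.13 and 0.46 ± 0.35 in the same order. Replicates 1 and 2 have 2 arrays per group, and replicates 3 and 4 have 1 vehicle array, which is assumed to vary like the others.

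Glul divided by replicate number in kidney, and all 3 treatments were found on both sides. On the 6 arrays of replicates 1 and 2 it measured 10.51 and 10.43 with vehicle, 10.36 and 10.30 with IVIg and 10.76 and 10.29 with modIVIg. On the 5 arrays of replicates 3 and 4 it was not detected on any, with values of 5.50, 4.83, 5.42, 4.98 and 5.34. The difference between the 2 sets was at least 15.7-fold, and within replicates 1 and 2 the change between modIVIg and vehicle was 0.05 ± 0.17 (adjusted p = 0.949). Slc25a13 followed the same division, with 7.93 to 8.39 on the 6 arrays and no detection on the 5, at least 3.09-fold. Its second probe was detected on 4 of the 6 and on 0 of the 5. Within replicates 1 and 2 Slc25a13 was at −0.21 ± 0.16 against vehicle (adjusted p = 0.680).

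The division runs between probes of 1 gene as well as between genes. Of 300 genes with a probe higher by over 3 in replicates 1 and 2, 107 had another kept probe, and in 91 of those another probe differed by under 1. Probes of the housekeeping gene Hprt averaged 12.29 and 12.65 in the 2 sets on ILMN_2704499, but 8.77 and 4.84 on ILMN_2767487. The ATP synthase gene Atp5a1 averaged 13.96 and 8.90. In liver, where no such division was seen for Glul or Slc25a13, 209 of these features were tested, 9 (4.31%) were called between modIVIg and vehicle and their median change was −0.02.

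**Figure D4:**
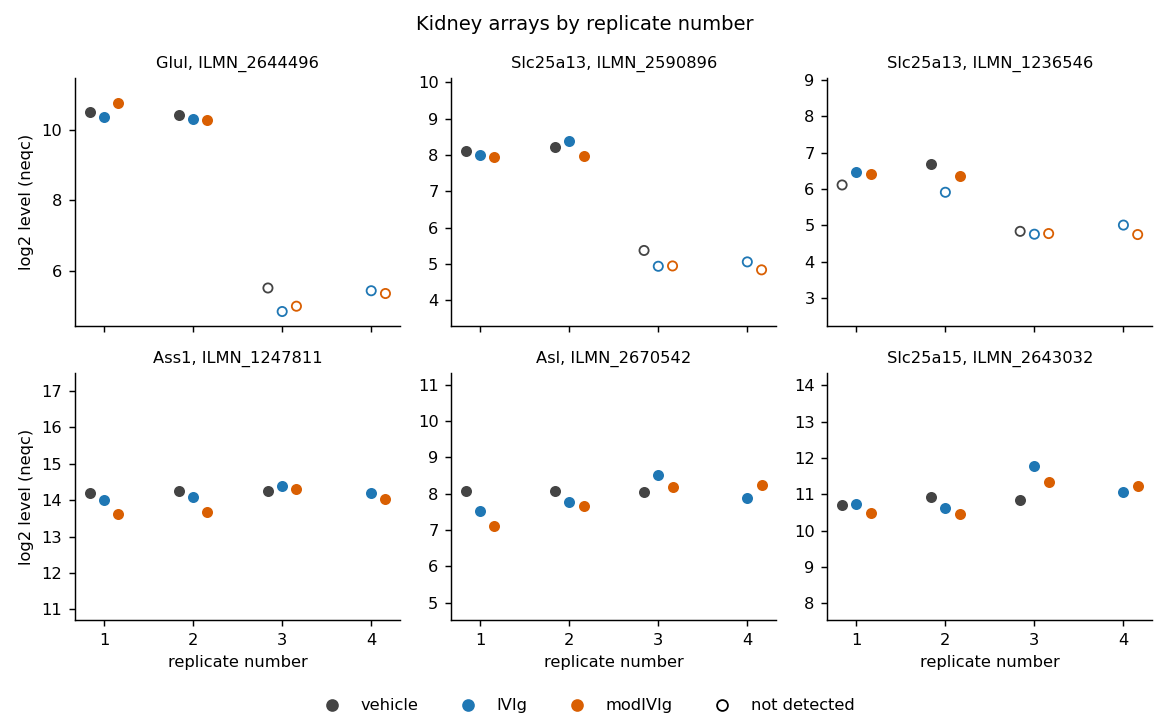
Log2 level (y axis) of 6 member probes on the kidney arrays by replicate number (x axis), coloured by treatment, open where not detected. Glul and Slc25a13 are high on the 6 arrays of replicates 1 and 2 and not detected on the 5 of replicates 3 and 4, while Ass1, Asl and Slc25a15 are detected on all 11.

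Set against kidney, with liver and kidney arrays normalised together, 7 of 8 tested members were higher in liver. Of all 9094 features 76% were called and 36.1% were called higher in liver. The members called were 5 with kidney replicates 1 and 2 only: Arg1, Asl, Cps1, Otc and Slc25a15. Cps1, Otc and Arg1 passed the filter on dim probes only through liver, which set their direction beforehand. The count of members is therefore no evidence beside the share of all features. Cps1 was at least 210-fold higher on its brighter probe and at least 72.3-fold on the other, and Otc at least 10.4-fold, none of these probes being detected on any kidney array. Arg1 ran from 14.82 to 15.11 in liver and was detected on 1 of 11 kidney arrays, that of vehicle replicate 2, at 6.37. The fitted difference of 9.76 on the log2 scale sets liver against background on the other 10 arrays, and it was 7.79 without background correction. Asl was higher by 2.81 ± 0.17 and Slc25a15 by 1.56 ± 0.16 (adjusted p = 1.61e-08). Ass1 did not pass, at −0.13 ± 0.10 (adjusted p = 0.243, 95% interval −0.34 to 0.08), with levels from 13.62 to 14.42 in liver and from 13.54 to 14.49 in kidney.

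The organ difference of the 2 members called in the modIVIg livers depended on the kidney division. Glul was higher in liver by 2.27 ± 0.78 (adjusted p = 0.0123) over all arrays and by 0.03 ± 0.10 (adjusted p = 0.766) with kidney replicates 1 and 2 only. Slc25a13 was higher by 1.12 ± 0.45 (adjusted p = 0.0286) over all arrays and at −0.11 ± 0.17 (adjusted p = 0.567) with kidney replicates 1 and 2 only. Its second probe ILMN_1236546, not detected in liver, was at −0.09 ± 0.23 over all arrays (adjusted p = 0.743, limma over all probes). With the mean of both probes Slc25a13 was not called. Hepatocyte markers were also found at a low level in kidney, with 5 of 11 detected on all kidney arrays and a summed level from 13.60 to 14.79, and their part in the kidney levels was not tested.

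Whether the response to modIVIg differed between the organs was tested as an interaction. Of 9094 features 11 (0.121%) differed against vehicle, and none of the 5 members kept in kidney did, the smallest adjusted p among them being 0.956 (limma). Cps1 and Otc, detected on 0 of 11 kidney arrays, and Arg1, detected on 1, have no kidney response that could be compared. The difference, liver minus kidney, was 0.08 ± 0.25 for Ass1 and −0.12 ± 0.41 for Asl. For Slc25a13 it was −0.59 ± 1.11 over all arrays, 5 of which did not detect it, and −1.10 ± 0.42 (adjusted p = 0.475) with kidney replicates 1 and 2 only. Glul was at 0.31 ± 1.93 over all arrays and at −0.67 ± 0.25 (adjusted p = 0.456) with kidney replicates 1 and 2 only. Against IVIg 3 features (0.033%) differed, and between IVIg and vehicle 0 features (0%) did, with 134 at an unadjusted p under 0.05 and no member called in either. The fall of Slc25a13 and Glul in liver is therefore not shown to differ from the kidney values.

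**Figure D5:**
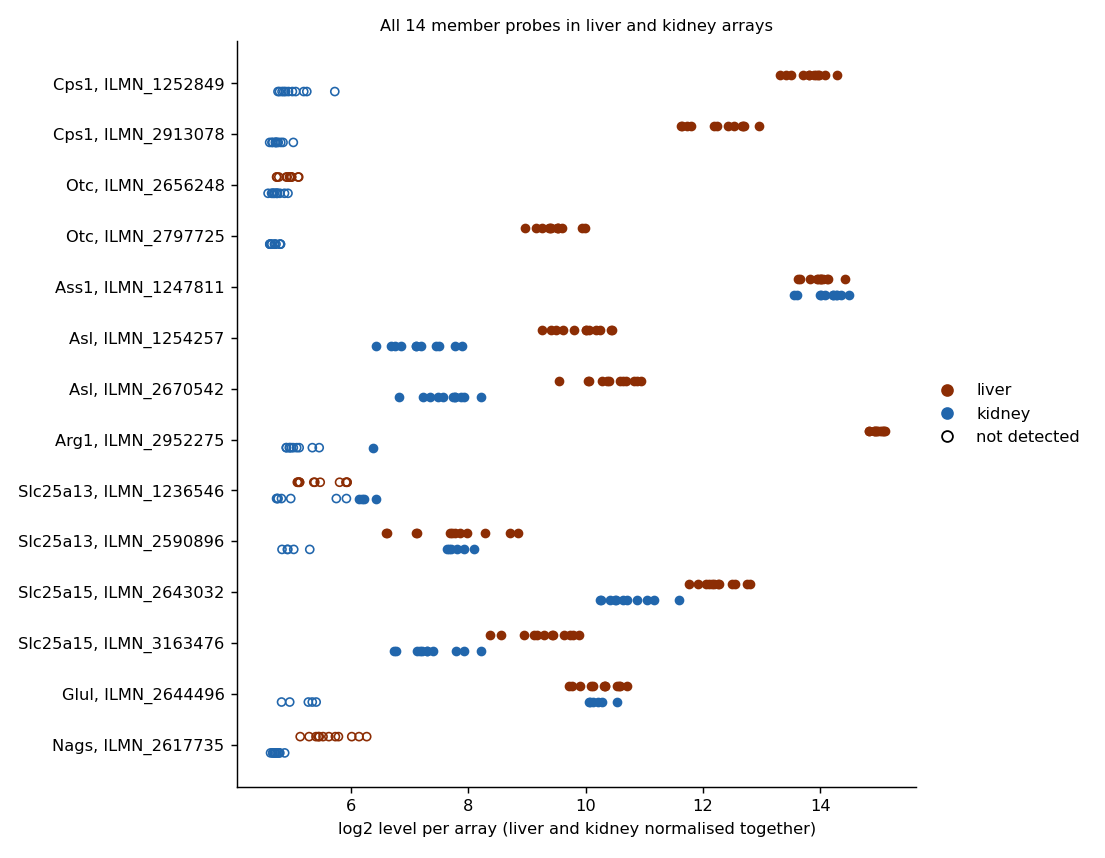
Log2 level per array (x axis) of all 14 member probes (y axis) on 12 liver and 11 kidney arrays normalised together, open where not detected. Levels are comparable along a row and not between probes. Cps1 ILMN_1252849 lies between 13.31 and 14.29 in liver and is not detected in kidney, Ass1 overlaps between the organs, and Glul and Slc25a13 ILMN_2590896 each have 5 undetected kidney arrays.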

How the data were processed

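Bead signals of liver and kidney on Illumina mouse beadchips were used. The deposited table holds each probe's mean bead intensity, exported from GenomeStudio 1.9.0 according to the submitters' processing notes and not normalised. A detection p-value stands beside every intensity, per the file headers. The authors' processed log2 values, normalised per organ per the series text, served as an alternative; lumi and limma are named per the submitters' processing notes, without their roles. For each organ, limma 3.58.1 (R 4.3.3) applied neqc, that is normexp background correction, an offset of 16 and quantile normalisation. A probe was kept if detected (p under 0.01) on 4 liver or 3 kidney arrays, the size of the smallest group, with the brightest kept probe standing for a gene. A gene symbol was annotated for 23978 of 25697 probes, 1 symbol each, and 1719 probes lacked one. Groups were compared with lmFit and eBayes, the 3 groups of an organ sharing 1 spread, at a Benjamini-Hochberg adjusted p under 0.05. A check on simulated data used independent noise without the kidney division, so it does not cover that division. Organs were compared after joint normalisation, with the arrays treated as independent samples. The labels do not say whether liver and kidney arrays of the same number come from 1 mouse. Organ and any processing batch of an organ cannot be told apart. The number of arrays limits the precision. Members and lists were chosen with earlier results of these data known; the rule names all members, called list genes, or up to 4 leaders where under 3 passed. Kidney arrays of 1 replicate number deviated together in 10 of 10 pairs (correlations 0.587 to 0.849), and liver arrays in 6 of 12. The kidney division itself follows the replicate number, so these correlations do not show that the numbers pair the kidney samples. The kidney p-values in Results come from fits without a block. With the division as a block, limma called 0 of 8544 features in each of the 3 kidney comparisons. A slide block was not run, since the files name no slides.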

Additional observations from a re-analysis of the deposited data

Results flagged for a closer look

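Within groups of 4 arrays, 43 member groups were checked for an array standing apart from the rest, and 3 were found. Chance alone flags about 1 in 20 groups. Asl on ILMN_2670542 measured 9.80 in liver vehicle replicate 1, against 10.61 to 10.73 in the other 3. Glul measured 10.36 in liver IVIg replicate 3, against 10.07 to 10.08 in the others. Slc25a15 on ILMN_2643032 measured 12.70 in liver modIVIg replicate 4, against 12.01 to 12.10 in the others.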

How the results depend on the processing

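Signal over background limits the dim members, so that Nags and the other undetected probes give no change. In liver modIVIg against vehicle the members called were 1 with no detection filter and 2 or 3 in the 11 other settings, and 0 to 3 with 1 array left out (0 without vehicle replicate 3, modIVIg replicate 1 or modIVIg replicate 4). Against IVIg they were 1 with all kept probes, array weights or the replicate block, and 0 to 1 with 1 array left out. The features called moved from 352 and 78 to 187 and 16 with no detection filter, 1112 and 230 with array weights, 540 and 180 with the replicate block, 832 and 18 with only the 2 groups compared, and 123 in the latter with a trended robust prior; with 1 array left out they ran from 83 to 812 and from 9 to 353. Features called in the interaction against vehicle and against IVIg, 11 and 3, became 7 and 5 with no detection filter, 45 and 34 with array weights, 19 and 14 with the kidney division as a block and 4 and 1 with kidney replicates 1 and 2 only; the first was 6 with all kept probes and the second 5 with mean probes. With 1 array left out these ran from 2 to 16 and from 2 to 12, and the third interaction from 0 to 16. Between organs Slc25a13 turned to −0.115 with the kidney division as a block and to −0.11 with kidney replicates 1 and 2 only, the latter chosen after seeing the data, and Glul to 0.034. Slc25a13 passed in 12 of 12 settings and Glul in 11 of 12 in liver against vehicle, Glul being lost with no detection filter (0.0548); Cps1 passed in 6 of 12, of which 5 used its brighter probe alone and 1 the mean of both probes. Other causes were not tested. In liver 6 of 12 pairs of 1 replicate number deviated together (correlations −0.13 to 0.521), which does not settle whether the numbers pair the samples. There the replicate block changed no call of a member except Cps1 against vehicle (−0.53, adjusted p = 0.0259, limma) and Slc25a13 against IVIg (−1.12).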

Other observations

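Blood white cells enter no comparison here, and 1 of their 8 arrays, modIVIg replicate 2, was left out because under 2% of its probes were detected. Ass1 was detected on 5 of the 7 and Arg1 on 3, while Glul was detected on 1, and the probes of Cps1, Otc, Asl, Slc25a13, Slc25a15 and Nags on 0. Within the normalisation of the blood arrays, Ass1 ranged from 5.77 to 7.63 with vehicle and from 5.84 to 6.47 with IVIg, and Arg1 from 5.24 to 6.25 and from 5.36 to 6.30.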
